A study of Mus musculus with 6 samples.

Results

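The genes of cholesterol and fatty acid synthesis were followed in the telencephalon of newborn mice with and without Tsc1, a gene whose product restrains the growth kinase complex mTORC1. The members were chosen by name, as 36 genes of the mevalonate and sterol pathway, of fatty acid synthesis and of their regulation, and 31 of them are among the 22651 genes of the tables. The choice was made with earlier results of these data known. Tm7sf2, Scd1, Scd2, Fads1 and Fads2 were not analysed here. All 31 passed the filter on low counts, which kept 13969 genes. mRNA-sequencing was done on whole telencephalon at postnatal day 0, with 1 table per mouse, from 3 WT mice (Tsc1 flox/flox with Emx1 +/+) and 3 TSC1-KO mice (Tsc1 flox/flox with Emx1-cre/+). Both groups therefore carry the floxed gene on both chromosomes, and the controls were littermates with no Cre. Cre was expressed from the Emx1 locus, in the embryonic dorsal cortex, and removes 2 exons of Tsc1 there, so a TSC1-KO telencephalon also holds cells with an intact gene.

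Cholesterol is built from acetyl-CoA through mevalonate, isoprenoid diphosphates, squalene and lanosterol, by a chain of enzymes that mostly lie in the endoplasmic reticulum. The genes of that chain share a regulator, SREBP2, a membrane-bound transcription factor that the escort protein SCAP carries to the Golgi for cleavage when sterols are low, and that the INSIG proteins hold back when sterols are high. SREBP1 acts in the same way on genes of fatty acid synthesis, and mTORC1 is known to promote the activity of both. The newborn brain makes its own cholesterol, since lipoproteins of the blood do not cross the blood-brain barrier.

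Promoter windows are shown for 5 sterol genes, Mvd and Hsd17b7, which passed the test, Hmgcs1 and Sc4mol, which hold an SREBP motif, and Ebp, which had the smallest change. Each runs from 250 bases before to 50 bases after the start of the gene, 5′ to 3′ on the gene's strand, in RefSeq's GRCm38.p6, the assembly of mm10. Capitals mark the core of the sterol regulatory element, TCACNCCA, and the NF-Y box CCAAT, each searched on both strands so that the reverse complement is also in capitals, and no match of one overlapped a match of the other in these windows. The windows lie at chr13:119690101-119690400 on the plus strand, chr8:122443373-122443672 on the minus strand, chr8:64733529-64733828 on the minus strand, chr1:169969156-169969455 on the minus strand and chrX:8193463-8193762 on the minus strand.
Hmgcs1: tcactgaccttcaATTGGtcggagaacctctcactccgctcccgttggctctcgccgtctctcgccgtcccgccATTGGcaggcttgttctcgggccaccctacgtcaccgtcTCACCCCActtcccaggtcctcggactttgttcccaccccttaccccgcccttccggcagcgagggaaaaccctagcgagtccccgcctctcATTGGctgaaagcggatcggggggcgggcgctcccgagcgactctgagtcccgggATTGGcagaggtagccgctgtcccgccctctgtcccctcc
Mvd: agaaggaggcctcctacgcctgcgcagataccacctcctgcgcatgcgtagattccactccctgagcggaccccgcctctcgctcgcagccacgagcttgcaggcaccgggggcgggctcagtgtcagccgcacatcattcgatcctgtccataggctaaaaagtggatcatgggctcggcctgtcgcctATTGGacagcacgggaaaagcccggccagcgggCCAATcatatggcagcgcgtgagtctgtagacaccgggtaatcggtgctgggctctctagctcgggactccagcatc
Sc4mol: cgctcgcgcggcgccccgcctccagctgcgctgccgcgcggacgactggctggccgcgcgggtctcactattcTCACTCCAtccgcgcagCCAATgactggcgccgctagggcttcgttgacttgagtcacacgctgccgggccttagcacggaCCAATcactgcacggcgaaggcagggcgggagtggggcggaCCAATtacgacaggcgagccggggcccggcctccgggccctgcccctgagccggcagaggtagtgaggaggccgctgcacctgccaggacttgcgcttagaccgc
Hsd17b7: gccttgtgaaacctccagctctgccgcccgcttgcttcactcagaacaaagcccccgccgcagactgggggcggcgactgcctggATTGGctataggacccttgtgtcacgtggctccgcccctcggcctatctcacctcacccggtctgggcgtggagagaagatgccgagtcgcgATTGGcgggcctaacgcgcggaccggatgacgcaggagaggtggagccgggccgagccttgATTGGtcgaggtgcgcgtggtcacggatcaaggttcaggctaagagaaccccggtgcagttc
Ebp: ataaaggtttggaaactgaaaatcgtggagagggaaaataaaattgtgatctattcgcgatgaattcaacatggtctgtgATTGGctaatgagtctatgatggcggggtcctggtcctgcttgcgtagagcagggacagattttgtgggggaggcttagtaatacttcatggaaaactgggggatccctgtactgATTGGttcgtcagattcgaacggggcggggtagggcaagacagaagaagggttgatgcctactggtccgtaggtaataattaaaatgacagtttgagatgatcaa

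RefSeq windows were matched for 27 of the 31 members, all but Fdps, Fdft1, Sqle and Stard4. Only exact matches within the windows were counted, so other forms of the element and sites further away would be missed. Of the 27 members, 3 held TCACNCCA, namely Hmgcs1, Sc4mol and Srebf2. Of all 27025 genes with a window, 4.97% held it, and 4.37% of tested genes. Hmgcs1 alone among the members also held the longer form TCACNCCAC, as did 1.44% of all genes. The NF-Y box was far more frequent. It was in a window of 13 of the 14 sterol genes matched, all but Acat2, and in 3 of 5 fatty acid genes, against 41.1% of all genes and 42.7% of tested genes with a window. The GC box GGGCGG, which Sp1 binds, was in a window of 13 of 14 sterol genes and of 2 of 5 fatty acid genes, against 38.2% of all genes and 68.7% of tested genes. Ebp, the least changed sterol gene, held 2 NF-Y boxes and 1 GC box, the same numbers as Mvd, the most changed one.

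Total expected counts per sample ranged from 14119365 to 17772865, and members were counted between 106 times (Ebp) and 22423 times (Fasn) in a sample. Tsc1 itself was at 50.2, 31.99 and 28.4 TPM (RSEM's level per transcript length, scaled to a fixed total) in WT replicates 1, 2 and 3, and at 27.1, 21.7 and 22.4 TPM in TSC1-KO replicates 1, 2 and 3. The groups did not overlap, in the direction of the labels, but the log2 fold change of -0.66 had a standard error of 0.18 and did not pass edgeR's test (adjusted p = 0.09998). On the first principal component of all tested genes, TSC1-KO replicate 3 lay at -3.95, between WT replicate 1 at -7.43 and the other TSC1-KO mice at 26.5 and 30.3. Values without it are given below where leaving it out changed a call. That mouse was singled out from these same data, so these values are a description and not separate support for a change. For Fasn and Fdps, leaving out any other mouse gave a larger edgeR adjusted p, up to 0.207 and 0.612. Without WT replicate 1 the adjusted p of some members fell. Idi1 (edgeR adjusted p = 0.0473) and Dhcr7 (0.04996) were called higher in that fit and not with all 6 mice. Such values are mostly not given per gene. In whole tissue, more cells that express a gene and more RNA of it per cell cannot be told apart.

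All 31 members had a positive fitted log2 fold change of TSC1-KO over WT, as did 49.3% of all genes tested. Their median was 0.37, with a range of 0.02 to 0.85, and the median of all genes was -0.003. Mvd, Hsd17b7, Aacs and Acsl4 rose, with an edgeR adjusted p (Benjamini-Hochberg over all genes) below 0.05, and no member fell. Over all genes tested, 0.859% were called higher and 0.659% lower. Without adjustment, 21 members had a p below 0.05 and were higher and none was lower, where the backgrounds were 9.04% higher and 8.93% lower. In 12 members every TSC1-KO mouse had a higher TPM than every WT mouse, against 12.3% of genes tested, and in none was every TSC1-KO mouse lower, against 10.3%. The calls depended on single mice. Without TSC1-KO replicate 3, 21 of the 31 members were called higher and none lower (backgrounds 2.61% and 3.06%), and without WT replicate 1, 5 were called higher (background 1.99%). Leaving out WT replicate 2 or 3, or TSC1-KO replicate 1 or 2, left no member called, with backgrounds of 0.171% to 0.233%. DESeq2 called 13 members higher (background 2.45%), and edgeR with the replicate number as a block called 11 (background 1.95%), although the numbers were not found to pair the mice.

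**Figure D1:**
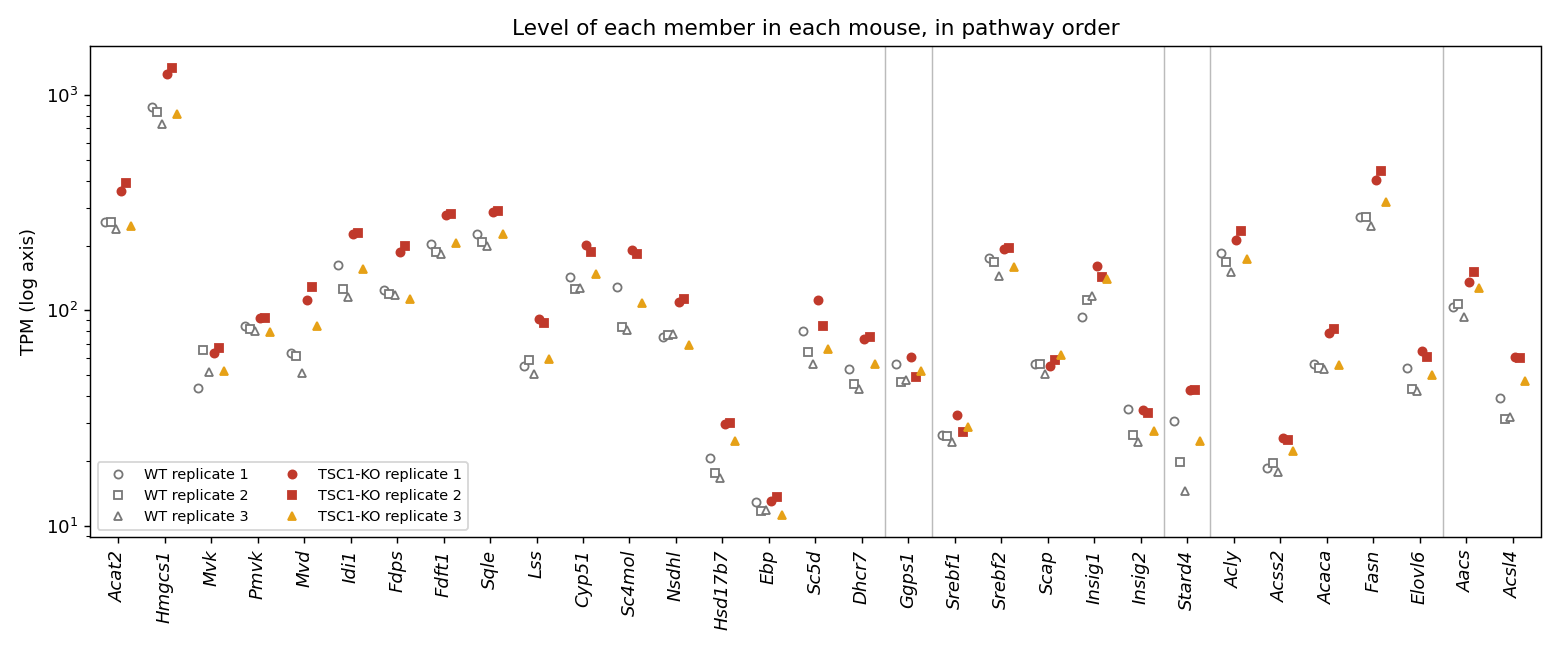
TPM of each member (logarithmic axis) in each of the 6 mice, with genes in pathway order and vertical lines between sterol synthesis, Ggps1, regulators, Stard4, fatty acid synthesis and the ligases Aacs and Acsl4. Grey symbols are WT mice, red symbols TSC1-KO replicates 1 and 2, and orange triangles TSC1-KO replicate 3, which lies inside or below the WT range for 11 of 17 sterol genes.

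The mevalonate steps opened with high levels. Hmgcs1, the cytosolic HMG-CoA synthase, was the most abundant member in WT and took between 32.4% and 35.2% of the summed TPM of the 17 sterol genes in each mouse. Its TPM was 880, 839 and 735 in WT and 1251, 1332 and 816 in TSC1-KO, so TSC1-KO replicates 1 and 2 were above all WT mice and replicate 3 was among them. Its log2 fold change was 0.44 (standard error 0.16, edgeR adjusted p = 0.181), and 0.62 without replicate 3 (adjusted p = 0.00469). Acat2, which joins acetyl-CoA units at the start of the chain, was at 257, 259 and 239 TPM in WT and at 357, 390 and 246 in TSC1-KO. Its change of 0.36 had an edgeR adjusted p of 0.209, and 0.00566 without replicate 3 with a change of 0.53. Its expected counts were fractional in all 6 mice, so reads it shares with other transcripts were divided by the quantification. Mvk and Pmvk, the kinases that follow, had changes of 0.15 (95% confidence interval -0.21 to 0.505) and 0.064 (-0.13 to 0.26), with groups that overlapped.

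Mvd, the decarboxylase that makes isopentenyl diphosphate, had the largest change of all members. Its TPM was 63.6, 61.1 and 51.3 in WT and 111.4, 129.1 and 84.3 in TSC1-KO, with no overlap. That is 58.7 ± 6.53 (SD, n = 3) against 108.2 ± 22.6 (SD, n = 3), a difference of 0.85 on log2 with a standard error of 0.14 (edgeR adjusted p = 0.0306), or 1.803-fold. Mvd lies on chromosome 8 from 122433596 to 122443422. Idi1, which isomerises the product of Mvd, was at 162, 126 and 116 TPM in WT and at 226, 228 and 155 in TSC1-KO. Here WT replicate 1 was above TSC1-KO replicate 3, and the change of 0.56 (standard error 0.15) had an edgeR adjusted p of 0.0981, and 0.00744 without replicate 3 with a change of 0.72.

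Fdps condenses these units to farnesyl diphosphate, and Fdft1, squalene synthase, commits them to sterols. Fdps was at 125, 119.8 and 118 TPM in WT, and at 186, 199 and 113 in TSC1-KO. The WT mice lay close together, TSC1-KO replicate 3 lay below all of them, and the change of 0.41 had an edgeR adjusted p of 0.242. Without replicate 3 the change of Fdps was 0.62 (adjusted p = 0.00338). Fdft1 was at 204, 187 and 182 TPM in WT and at 277, 282 and 206 in TSC1-KO. The groups just failed to overlap, with a change of 0.39 (standard error 0.11, edgeR adjusted p = 0.106), and of 0.51 without replicate 3 (adjusted p = 0.00416). The counts of both are less certain, since 77.4% of the exon bases of Fdps are shared with Gm43738 on the same strand, and 20.9% of those of Fdft1 with Ctsb on the other strand. The library kit did not mark strand, so reads of opposite genes cannot be told apart. The expected counts of Fdps and Fdft1 were whole numbers in every mouse, so the quantification divided none of their reads between genes. The overlaps are those of GENCODE, whereas RefSeq transcripts were quantified. In all, 9 of the 31 members have exon overlaps, among them Scap with 18.6% of its exon bases, Hmgcs1 with 16% and Idi1 with 10.7%, each on the other strand.

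The steps from squalene to lanosterol and its first product follow. Sqle, squalene epoxidase, was at 227, 207 and 199 TPM in WT and at 286, 291 and 226 in TSC1-KO, a change of 0.31 (standard error 0.092, edgeR adjusted p = 0.123). Lss, which closes the ring to lanosterol, was at 55.3, 59.1 and 50.8 TPM in WT and at 91.2, 87.8 and 59.6 in TSC1-KO, a change of 0.499 (standard error 0.14, adjusted p = 0.111). Cyp51, lanosterol demethylase, was at 142, 126 and 127 TPM in WT and at 201, 186 and 148 in TSC1-KO, a change of 0.40 (standard error 0.098, adjusted p = 0.0786). In Lss and Cyp51 the groups did not overlap, and in Sqle TSC1-KO replicate 3 was below WT replicate 1. Without replicate 3 all of them were called higher, with edgeR adjusted p of 0.0136 for Sqle, 0.00282 for Lss and 0.00473 for Cyp51.

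Among the later enzymes, Hsd17b7, a keto reductase of the demethylation steps, rose. It was a low gene, at 20.7, 17.6 and 16.6 TPM in WT and at 29.7, 30.2 and 24.9 in TSC1-KO. The change was 0.60 (standard error 0.103, edgeR adjusted p = 0.0312), or 1.52-fold, from 18.3 ± 2.15 to 28.2 ± 2.94 TPM (SD, n = 3 each). The gene lies on chromosome 1 from 169949535 to 169969242. Dhcr7, a late reductase to cholesterol, was at 53.5, 45.4 and 43.1 TPM in WT and at 73.99, 74.95 and 56.1 in TSC1-KO, without overlap, with a change of 0.50 (standard error 0.12, adjusted p = 0.0697). Sc4mol (now Msmo1), the oxidase that begins the removal of methyl groups, had a larger change of 0.68 but a wide spread, at 129, 83.8 and 81.02 TPM in WT and 190.4, 182 and 108 in TSC1-KO (standard error 0.22, adjusted p = 0.146). WT replicate 1 was above TSC1-KO replicate 3 there as well. Without replicate 3, Dhcr7 had a change of 0.62 (edgeR adjusted p = 0.00657) and Sc4mol one of 0.89 (adjusted p = 0.0135).

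The remaining sterol enzymes did not pass the test in the full set of mice. Nsdhl, a dehydrogenase of the same steps, was at 75.1 to 78.1 TPM in WT and at 109.9, 112.9 and 69.1 in TSC1-KO. Its TSC1-KO replicates 1 and 2 were far above WT and replicate 3 was below it, and its change of 0.31 (edgeR adjusted p = 0.342) was 0.50 without replicate 3 (adjusted p = 0.00987). Sc5d, a desaturase, had a change of 0.35 (adjusted p = 0.313). Ebp, the sterol isomerase, was at 11.7 to 12.9 TPM in WT and at 11.2 to 13.6 in TSC1-KO, a change of 0.0197 with a 95% confidence interval from -0.285 to 0.32, and its sign was negative under upper-quartile scaling.

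**Figure D2:**
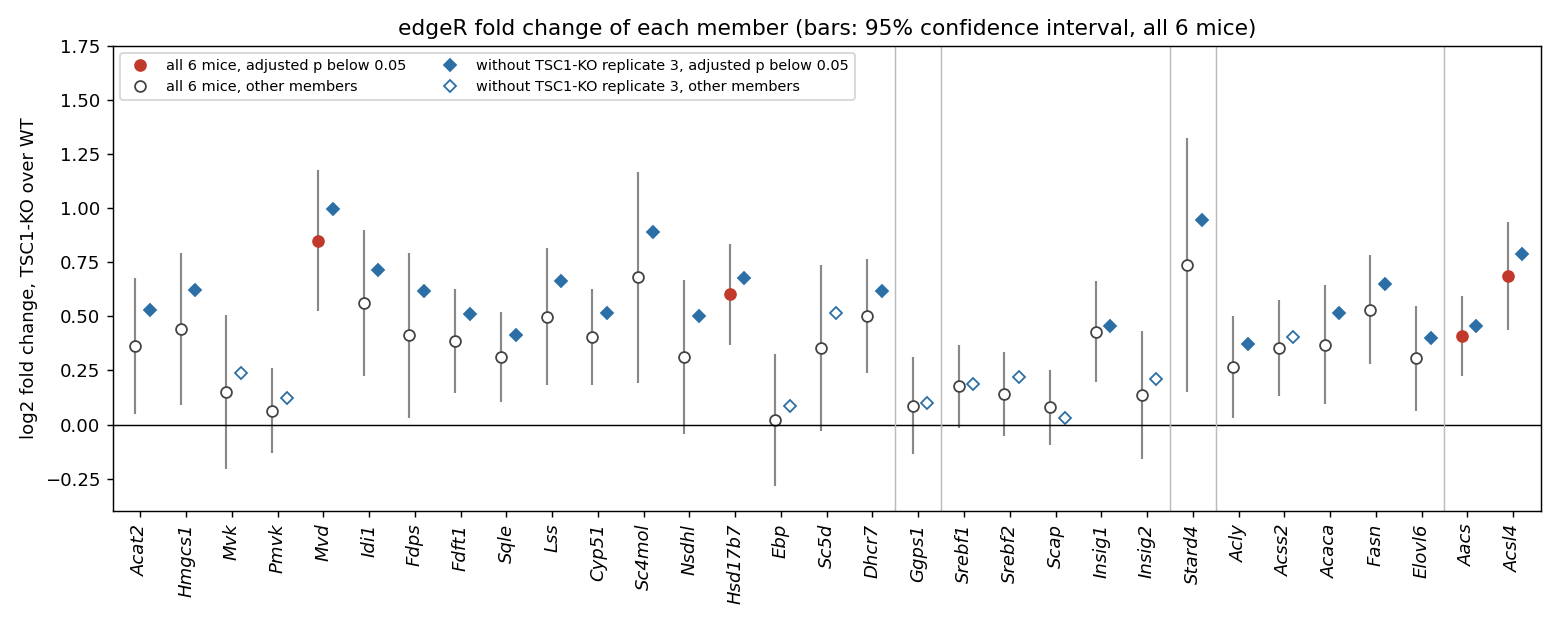
edgeR log2 fold change of each of the 31 members, in the same gene order, with 95% confidence intervals for the fit of all 6 mice (circles, red where the adjusted p was below 0.05) and the value without TSC1-KO replicate 3 (blue diamonds, filled where called). All circles are above 0, 4 are red, and 21 diamonds are filled.

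Ggps1 draws farnesyl diphosphate off to geranylgeranyl diphosphate, which is attached to small GTPases. It was at 56.2, 46.4 and 47.4 TPM in WT and at 61.1, 49.2 and 52.2 in TSC1-KO, with groups that overlapped and a change of 0.086 (95% confidence interval -0.14 to 0.31, edgeR adjusted p = 0.686). Stard4, which carries cholesterol between membranes, had the second largest change of the members at 0.74. Its spread was wide within WT, at 30.7, 19.7 and 14.5 TPM, and TSC1-KO was at 42.7, 42.7 and 24.8, so replicate 3 lay within the WT range. The standard error was 0.26 and the adjusted p 0.182, and without TSC1-KO replicate 3 the change was 0.95 (adjusted p = 0.0395).

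The regulators had a median log2 fold change of 0.14, and none of 5 was called (edgeR adjusted p of 0.0767 to 0.628, 1 with an unadjusted p below 0.05, 1 called by DESeq2). Srebf2, which encodes SREBP2, was at 174, 167 and 145 TPM in WT and at 192, 195 and 159 in TSC1-KO, with a change of 0.14 (95% confidence interval -0.053 to 0.34). Srebf1, which encodes SREBP1, was lower in level, at 26.3, 26.2 and 24.5 TPM in WT and at 32.8, 27.3 and 28.6 in TSC1-KO. Its groups did not overlap, and its change of 0.18 had a 95% confidence interval from -0.016 to 0.37. Scap, the escort, was at 56.4, 56.4 and 50.7 TPM in WT and at 55.4, 58.9 and 61.9 in TSC1-KO, a change of 0.0796 (-0.094 to 0.25).

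Insig1, itself a target of SREBP2 that retains SCAP, was the regulator with the largest change. It was at 92.9, 111.8 and 116 TPM in WT and at 160.1, 142.6 and 139.7 in TSC1-KO, with no overlap. The change was 0.43 (standard error 0.104, edgeR adjusted p = 0.0767), and TSC1-KO replicate 3 was close to replicate 2. Without replicate 3 the change was 0.46, with an adjusted p of 0.04998, at the threshold. Insig2, its paralog, was at 34.7, 26.4 and 24.5 TPM in WT and at 34.3, 33.4 and 27.6 in TSC1-KO, a change of 0.14 (95% confidence interval -0.16 to 0.43) with WT replicate 1 above every TSC1-KO mouse.

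Of fatty acid synthesis, the 5 genes analysed had changes of 0.27 to 0.53 and a median of 0.35. None was called by edgeR, although all 5 had an unadjusted p below 0.05, and DESeq2 called 1, Fasn. Acly and Acss2 make cytosolic acetyl-CoA, from citrate and from acetate. Acly was at 185, 168 and 151 TPM in WT and at 212, 234 and 173 in TSC1-KO, a change of 0.27 (standard error 0.105, edgeR adjusted p = 0.2204), and of 0.37 without TSC1-KO replicate 3 (adjusted p = 0.0431). Acss2 was at 18.4, 19.6 and 17.8 TPM in WT and at 25.5, 25.1 and 22.2 in TSC1-KO, without overlap, a change of 0.35 (standard error 0.098, adjusted p = 0.107).

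Acaca, the carboxylase that makes malonyl-CoA, was at 56.6, 54.1 and 53.2 TPM in WT and at 78.3, 81.9 and 55.5 in TSC1-KO. TSC1-KO replicate 3 was within the WT range, and the change of 0.37 (standard error 0.12) had an edgeR adjusted p of 0.162. Fasn, fatty acid synthase and the second most abundant member in WT, was at 273, 273 and 245 TPM in WT and at 404, 442 and 317 in TSC1-KO. Every TSC1-KO mouse was above every WT mouse, and the change of 0.53 (standard error 0.11) had an adjusted p of 0.054. Elovl6, which lengthens the product of Fasn, was at 54.3, 43.0 and 42.4 TPM in WT and at 65.0, 60.9 and 50 in TSC1-KO, a change of 0.31 (standard error 0.108, adjusted p = 0.1804). Without replicate 3 all of them were called higher, with edgeR adjusted p of 0.00393 for Acaca, 0.00327 for Fasn and 0.0453 for Elovl6.

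Both acyl-CoA ligases rose. Acsl4, which activates long-chain polyunsaturated fatty acids such as arachidonic acid, was at 39.4, 31.3 and 32.1 TPM in WT and at 60.7, 60.4 and 47.1 in TSC1-KO, 34.2 ± 4.46 against 56.1 ± 7.78 (SD, n = 3 each). Its change was 0.69 (standard error 0.11, edgeR adjusted p = 0.0276), or 1.61-fold. Aacs, which activates acetoacetate in the cytosol for lipid synthesis, was at 104, 107 and 93.7 TPM in WT and at 135, 151 and 126 in TSC1-KO, 101.6 ± 7.04 against 137.5 ± 12.4 (SD, n = 3 each). Its change was 0.41 (standard error 0.082, adjusted p = 0.0479), or 1.33-fold. That call was lost with upper-quartile scaling (adjusted p = 0.0584) and without WT replicate 1 (adjusted p = 0.0526). Of the edgeR fits with 1 mouse left out, it held only without TSC1-KO replicate 3 (adjusted p = 0.0199). The largest adjusted p of Aacs in those fits was 0.189. The calls of Mvd, Hsd17b7 and Acsl4 each held in 2 of the same edgeR fits, with adjusted p up to 0.160, 0.163 and 0.155. The groups did not overlap in Aacs or Acsl4. Acsl4 lies on chromosome X from 142317993 to 142390802 and Aacs on chromosome 5 from 125475873 to 125517405.

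The sterol genes and the fatty acid genes were set side by side. The median log2 fold change was 0.405 over 17 sterol genes and 0.35 over 5 fatty acid genes, a difference of 0.052 that was not tested. The range of the fatty acid genes lay inside that of the sterol genes, and 2 of 17 against 0 of 5 were called. Without TSC1-KO replicate 3 the medians were 0.53 and 0.403, with 13 of 17 and 4 of 5 called. The summed TPM of the sterol genes was 2616, 2430 and 2237 in WT and 3671, 3781 and 2520 in TSC1-KO. That of the fatty acid genes was 587, 557 and 510 in WT and 785, 844 and 618 in TSC1-KO. In the sterol sum TSC1-KO replicate 3 was within the WT range, and in the fatty acid sum it was above all WT mice. Gene by gene the groups were alike, since that mouse was above all WT mice in 6 of 17 sterol genes and 2 of 5 fatty acid genes. Fasn, the most abundant fatty acid gene, was 1 of those 2.

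TSC1-KO replicate 3 was the lowest TSC1-KO mouse in 28 of 31 members, the exceptions being Ggps1, Srebf1 and Scap. Over all genes it was the lowest in 5194 of 13969. TSC1-KO replicate 1 exceeded all WT mice in 28 members and replicate 2 in 29, where over all tested genes the shares were 38.5% and 32.1%. Replicate 3 exceeded them in 13 of 31, against 25.5% of all genes, lay within the WT range in 14 and below it in 4. On log2 CPM, the count scaled to library size, relative to the mean of the WT mice, the median of the sterol genes was 0.55, 0.61 and 0.092 in TSC1-KO replicates 1, 2 and 3, and that of the fatty acid genes 0.43, 0.46 and 0.11. That of the regulators was 0.23, 0.21 and 0.15, and that of Aacs and Acsl4 0.56, 0.68 and 0.39. Mvd and Hsd17b7 kept 52.2% and 65.4% of the mean shift of the other TSC1-KO mice, whereas Acat2, Hmgcs1, Fdps and Nsdhl were among the members below the WT mean in replicate 3. Tsc1 itself was at -0.46, -0.73 and -0.68 on that scale in TSC1-KO replicates 1, 2 and 3.

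**Figure D3:**
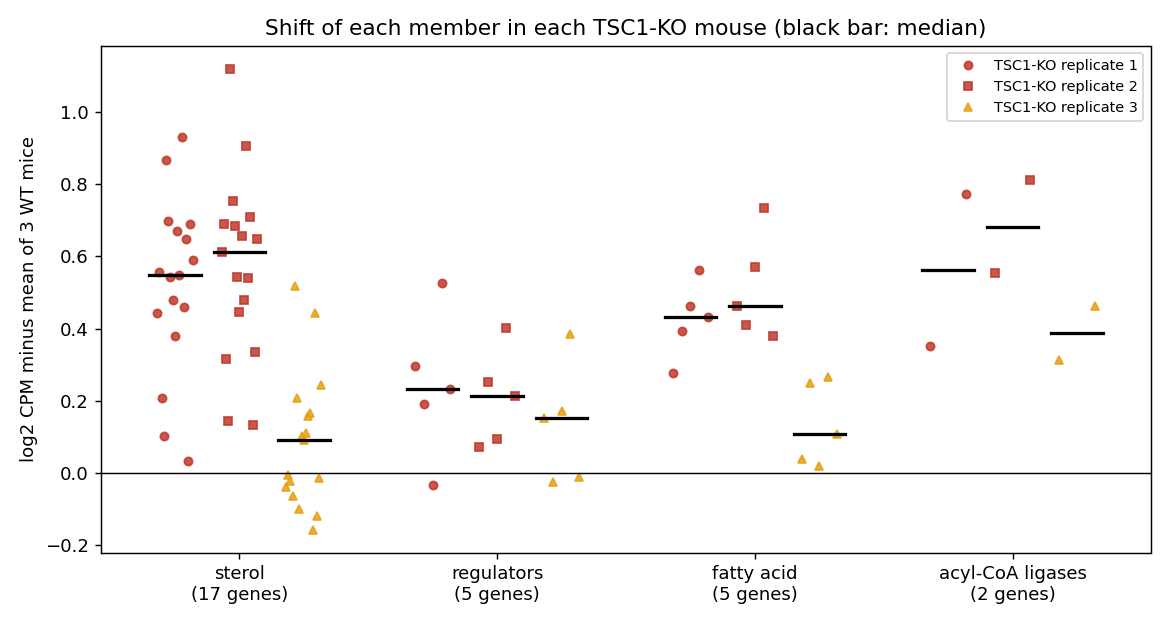
Difference of log2 CPM from the mean of the 3 WT mice for each sterol gene, regulator, fatty acid gene and acyl-CoA ligase, by TSC1-KO mouse, with black bars at the medians. In TSC1-KO replicate 3 (triangles) the sterol median is 0.092, below 0.55 and 0.61 in replicates 1 and 2, while Aacs and Acsl4 stay above 0.

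Genes around these pathways were counted as well. Over 7 lists of other lipid genes, 104 genes were tested, and edgeR called none higher or lower (14 were higher and 6 lower at an unadjusted p below 0.05, and DESeq2 called 3 higher and 0 lower). The backgrounds at that p were 9.04% higher and 8.93% lower, and at the adjusted p 0.859% and 0.659%, so that no calls among 104 genes is close to what all genes give. Their median log2 fold change was 0.061, with 68 positive and 36 negative. The 109 genes of these lists in the tables summed to 6440, 6123 and 5972 TPM in WT. In TSC1-KO they summed to 6920, 6524 and 6456, so these sums did not overlap, whereas those of the sterol members did. Without TSC1-KO replicate 3, 4 were called higher and none lower, against backgrounds of 2.61% and 3.06%. These are Thrsp, a nuclear factor that promotes fatty acid synthesis, Acsl3, Npc1, which exports cholesterol from lysosomes, and Soat1, which esterifies it. They are named after their values were seen. Thrsp had a change of 1.31 in all 6 mice (standard error 0.29, edgeR adjusted p = 0.0646), and the largest change of a member was 0.85, for Mvd.

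Markers of cell types moved between the groups too, and in some lists TSC1-KO replicate 3 again lay nearer to WT. The 6 markers of cortical excitatory neurons summed to 1439 to 1634 TPM in WT and to 1932, 1896 and 1516 in TSC1-KO, so that TSC1-KO replicate 3 lay below WT replicate 1, as in the sterol sum. None was called by edgeR and 1 by DESeq2, and without TSC1-KO replicate 3 edgeR called 2 higher. The 9 markers of subpallial and striatal neurons all had negative changes and 3 of them, Dlx1, Gad1 and Gad2, were called lower by edgeR. Without TSC1-KO replicate 3, 7 were called lower, and DESeq2 called 5. Their sums were 476 to 552 TPM in WT and 317, 310 and 385 in TSC1-KO. The 4 choroid plexus markers summed to 1159 to 2445 TPM in WT and to 27.8, 106.5 and 856 in TSC1-KO. None was called by edgeR and 1 lower by DESeq2, and without TSC1-KO replicate 3 edgeR called 3 lower, with a median log2 fold change of -2.80 in place of -1.86. The part of these differences in the values of the sterol and fatty acid genes was not tested.

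The glial, vascular and blood lists were described in the same way. Of 7 astrocyte markers Gfap rose (log2 fold change 1.09, standard error 0.13, edgeR adjusted p = 0.00683) and 4 of the 7 had a negative change, and the sums were 451 to 614 TPM in WT and 454 to 532 in TSC1-KO. Of 7 radial glia and progenitor markers Sox2 fell (log2 change -0.47 with a standard error of 0.078, edgeR adjusted p = 0.0297), with sums of 2940 to 3461 TPM in WT and 2884 to 3027 in TSC1-KO. In the full set of mice edgeR called no marker among 8 of the oligodendrocyte lineage (211 to 268 TPM in WT, 195 to 212 in TSC1-KO), 7 of microglia (145 to 197, 146 to 222) and 7 of endothelial cells and pericytes (254 to 332, 222 to 263). Without adjustment 2 oligodendrocyte, 2 microglia and 4 endothelial markers had a p below 0.05 and were lower, and 1 oligodendrocyte marker was higher. DESeq2 called 2 oligodendrocyte and 2 endothelial markers lower, and edgeR without TSC1-KO replicate 3 called 1 oligodendrocyte marker lower. The endothelial list had a median log2 fold change of -0.32. Red blood cell genes summed to 1694, 2044 and 5566 TPM in WT and 1291 to 1783 in TSC1-KO, and 2 of the 5 were at 0 in a mouse. The 4 tested had a median of -0.98, all with an unadjusted p below 0.05, and none was called by edgeR or DESeq2. No gene of the other cell type lists described here was at 0 in any mouse.

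**Figure D4:**
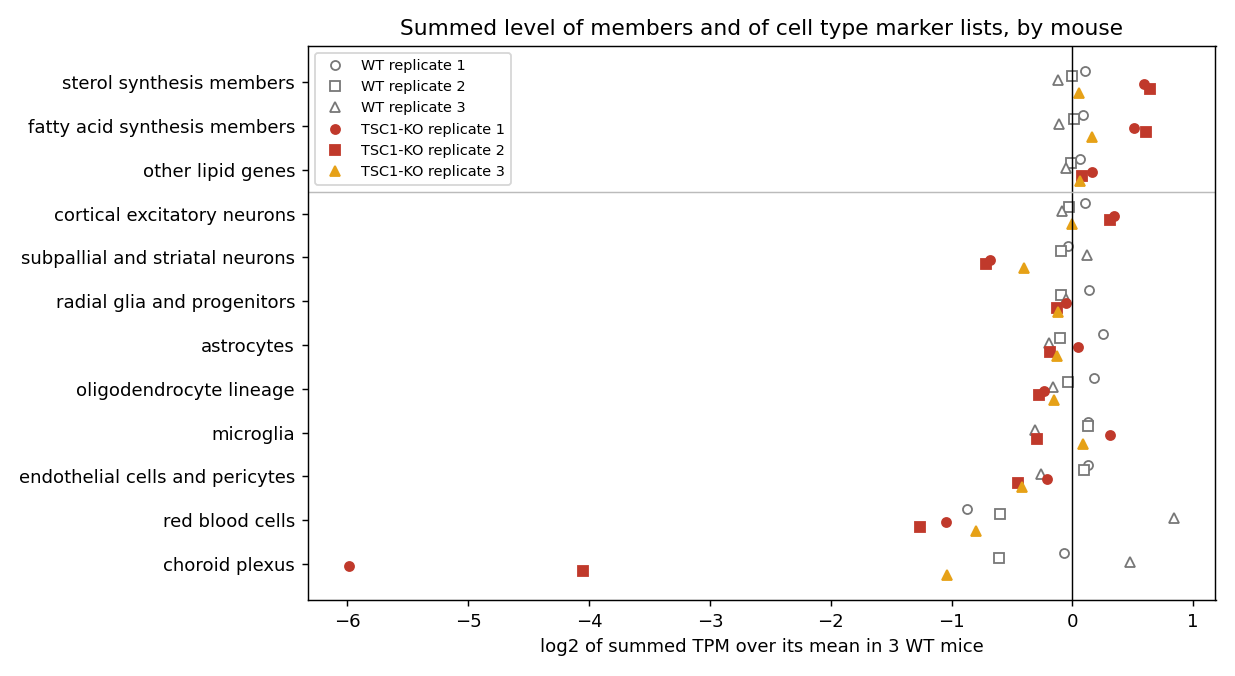
Summed TPM of the sterol and fatty acid members, of the other lipid genes and of 9 cell type marker lists in each mouse, on a log2 scale relative to the WT mean. TSC1-KO replicates 1 and 2 stand to the right of WT in the sterol, fatty acid, other lipid and cortical excitatory lists. They stand to the left in the subpallial, choroid plexus, oligodendrocyte and red blood cell lists. Replicate 3 (orange triangles) lies between them and WT or among WT in these lists.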

How the data were processed

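The series holds mRNA-sequencing of telencephalon from 3 WT and 3 TSC1-KO mice, grouped by the sample titles. The authors checked the reads with FastQC, trimmed them, used MapSplice2 for alignment to mm10, and estimated gene levels from RefSeq transcripts by RSEM 1.2.12. The kit did not mark strand. The deposited expected counts are RSEM's estimates per gene with no scaling. The deposited TPM values are scaled by effective length and to a fixed total.

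Expected counts were rounded and fitted over all genes with edgeR 4.0.16 in R 4.3.3 (filterByExpr, TMM, quasi-likelihood test, Benjamini-Hochberg adjustment, threshold 0.05). Log2 CPM used a prior count of 2. Standard errors are the fold change over the root of the F statistic, and confidence intervals are at 95%. A depth of 3 counts corresponds to 0.169 to 0.212 CPM. Alternatives were RLE and upper-quartile scaling, DESeq2 1.42.0, limma 3.58.1 on log2(TPM + 1) and log2(TPM + 0.1) (genes reaching 1 TPM in 3 or more samples), 2 other count filters, effective-length offsets, a replicate block and leaving out each mouse. The scripts were tested on simulated counts with 200 genes changed and the same spread for all genes. There edgeR recovered 34.5% of changes of 0.5 on log2 and 93.5% of changes of 1. A member that was not called may therefore still differ. Libraries within a group differed beyond sampling noise (chi-square per degree of freedom of 5.67 to 17.4), and p-values measure the spread between these mice.

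Members, groups and lists were chosen with earlier results of these data known. Values per mouse are given for each called member, each regulator, Stard4, Ggps1 and members with an unadjusted p below 0.05. Genes of other lists were to be named only where called. Promoter windows are RefSeq's, and exon overlaps are from GENCODE M21, both on GRCm38. Sc4mol was matched as Msmo1. No list was tested as a set.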

Additional observations from a re-analysis of the deposited data

How the results depend on the processing

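The positive direction of all 31 members held in every fit but for Ebp, at -0.012 with upper-quartile scaling and between -0.042 and 0.086 with each mouse left out. The median of the sterol genes ran from 0.30 without TSC1-KO replicate 2 to 0.53 without TSC1-KO replicate 3. That of the fatty acid genes ran from 0.27 to 0.403 in the same fits. These moves were less than 1 SD between TSC1-KO mice. That SD is itself widened by replicate 3, so it is a loose measure and does not show that the medians were stable. The counts of calls moved most. With each mouse left out in turn, members called higher ranged from 0 to 21, sterol genes from 0 to 13, fatty acid genes from 0 to 4, all genes called higher from 24 to 368 and all genes called lower from 4 to 431. DESeq2 called 13 members higher, 9 of them sterol genes and 1 fatty acid gene, and 335 genes higher and 301 lower over all genes. Both limma fits and the fit with no filter on low counts called 1 fatty acid gene, and the fit with no filter called 171 genes lower. Tsc1 passed with DESeq2 (log2 fold change -0.65, adjusted p = 0.00319). The cause of these differences was not tested.

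With the replicate number as a block, 11 members were called higher, 7 of them sterol genes and 1 fatty acid gene, over all genes 273 were higher and 278 lower, and Tsc1 passed (-0.63, adjusted p = 0.0217). The deviations of same-numbered mice correlated with r of 0.27, -0.13 and 0.32, so the numbers were not taken to pair them, and not every mouse correlated best with its own number. Ebp, the member with the fewest reads, was counted 106 to 131 times in a mouse.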

Other observations

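The 7 lists of other lipid genes were each described apart. The 22 tested genes of glycerolipid and phospholipid synthesis had 19 positive changes and a median log2 fold change of 0.11, with 1 at an unadjusted p below 0.05 and none called by edgeR or DESeq2. Lpin1, which makes diacylglycerol and whose product mTORC1 phosphorylates, had a change of 0.099 (standard error 0.11, edgeR adjusted p = 0.664), and was named after its value was seen. The 18 other fatty acid enzymes had 12 positive changes and a median of 0.071, over a range of -0.78 to 1.31. The 8 other acyl-CoA synthetases had a median of -0.014 and 3 positive changes, beside the rise of Acsl4.

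Genes that process SREBP or control the turnover of sterol enzymes had a median of 0.022 over 10 genes, with 5 positive. The 21 genes of sterol uptake, export and esterification had a median of 0.087 and 14 positive changes. Apoe, the main carrier of cholesterol between brain cells, was at 563 ± 54.1 TPM (SD, n = 3) in WT with a change of 0.036 (standard error 0.093, edgeR adjusted p = 0.873), and was likewise named after its value was seen. The 12 genes that use isoprenoids had a median of 0.049 and none with an unadjusted p below 0.05, and the 13 genes of acetyl-CoA, ketone body and fatty acid oxidation a median of 0.041. With all 6 mice and no block, edgeR called none of the genes of these lists. It called 4 higher without TSC1-KO replicate 3 and 4 higher with the replicate number as a block.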
